A study of Drosophila melanogaster with 13 samples.

Results

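The sites described here are the 449 regions of the Drosophila melanogaster genome at which wild-type Pita was called with a FLAG antibody, where the form of Pita with the human ZFP276 domain was also called with FLAG, and where the form without its own domain was not. They were chosen by the FLAG peak calls themselves, namely Pitawt FLAG peaks that overlapped a PitaZ276 FLAG peak by at least 1 bp and no PitaΔZ FLAG peak. They made up 449 of the 1792 Pitawt FLAG peaks (25.1%, exact Clopper-Pearson 95% interval 23.1 to 27.1%). Of the other peaks, 663 were called with FLAG in both altered lines, 674 in neither and 6 in PitaΔZ alone. The FLAG calls and FLAG folds of these sites are therefore given as a description with no test. Of the 449 sites, 3 lay on unplaced scaffolds and 446 on the named chromosomes 2L, 2R, 3L, 3R, X or 4.

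ChIP-seq libraries were made from chromatin of whole adult flies aged 2 to 3 days, with 2 libraries for each of 3 lines and 2 antibodies and 1 preimmune library. The genotypes were labelled pita1attP Pitawt for the line with wild-type Pita, y1w1118; pita1attP PitadeltaZ for PitaΔZ, which lacks the zinc finger-associated domain (ZAD), and pita1attP PitaZ276 for the line whose Pita carries the domain of ZFP276 instead. All 3 genotype labels share pita1attP, and y1w1118 stood in the PitaΔZ label alone. The preimmune library was labelled pita1attP Pitawt, and the names of all 6 deposited lists set them against it, so the lists of the altered lines share a control from the wild-type line. The other antibody recognised Pita itself and was named anti-Pita C in the labels' protocol.

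Pita is a C2H2 zinc-finger protein of the architectural, or insulator, class. Such proteins bind DNA through their zinc fingers and take part in chromatin boundaries, and Pita is known for its binding sites in boundaries of the bithorax complex. The ZAD at the N-terminus of many insect zinc-finger proteins is a dimerisation domain, through which ZAD proteins pair with themselves. ZFP276 is a human zinc-finger protein with a ZAD-like domain.

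Each line and antibody gave 1 list of peaks with no spread between libraries, so no test between lines was possible. Read counts were not given in the lists, and library depth is unknown. Intervals below cover counting error only. Folds are the authors' enrichment values over background, and a fold or rank describes a peak within its own list. In whole bodies, occupancy in fewer cells and lower occupancy per cell cannot be told apart. The 3 FLAG lists differed in length and in how far down they reached, and absence from the PitaΔZ FLAG list is read beside that. It held 685 peaks with a median fold of 29.5, of which 7 (1.02%) had a fold under 5 and 104 (15.2%) one under 10. The PitaZ276 FLAG list held 1243 peaks with a median of 9.90, of which 305 (24.5%) had a fold under 5 and 628 (50.5%) one under 10. In the Pitawt FLAG list, 859 peaks (47.9%) had a fold under 10. The smallest −log10 of the irreproducible discovery rate (IDR) was 2.01 in PitaΔZ FLAG and 1.31 in PitaZ276 FLAG, and 83 of the 449 sites had a PitaZ276 FLAG peak with a value under 2. The part of list length and threshold in the absence from PitaΔZ was not tested.

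The sites were of middle strength in the wild type. Their Pitawt FLAG folds ran from 2.86 to 71.6 with a median of 10.2, against a median of 25.6 for the sites called in both altered lines and 6.06 for those called in neither. Their median rank by p was 910 of 1792. When all Pitawt FLAG peaks were divided into 5 bins by fold, the sites made up 30 of the 359 strongest peaks (8.36%), 113 of 358 in the next bin (31.6%), 150 of 358 in the middle bin (41.9%), 102 of 358 in the next (28.5%) and 54 of the 359 weakest (15.0%). The middle bin, with folds of 8.34 to 13.5, thus held the highest share. The peaks were also of middle width, with a median of 909 bp against 1553 bp for sites called in both altered lines and 746.5 bp for those called in neither.

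In PitaZ276 the same sites stood toward the weak end of the FLAG list. Their PitaZ276 FLAG folds ran from 2.30 to 48.7 with a median of 5.52, and their median rank was 888 of 1243. The sites called in both altered lines had a median of 18.4. Between the quartiles, the folds of the 449 sites ran from 7.22 to 15.3 in Pitawt and from 4.14 to 8.04 in PitaZ276. The PitaZ276 summit lay within 100 bp of the Pitawt summit at 373 of the 449 sites (83.1%, 79.3 to 86.4%), with a median offset of 39 bp. For sites called in both altered lines it was 89.7% (87.2 to 91.9%), with a median offset of 17 bp.

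**Figure D1:**
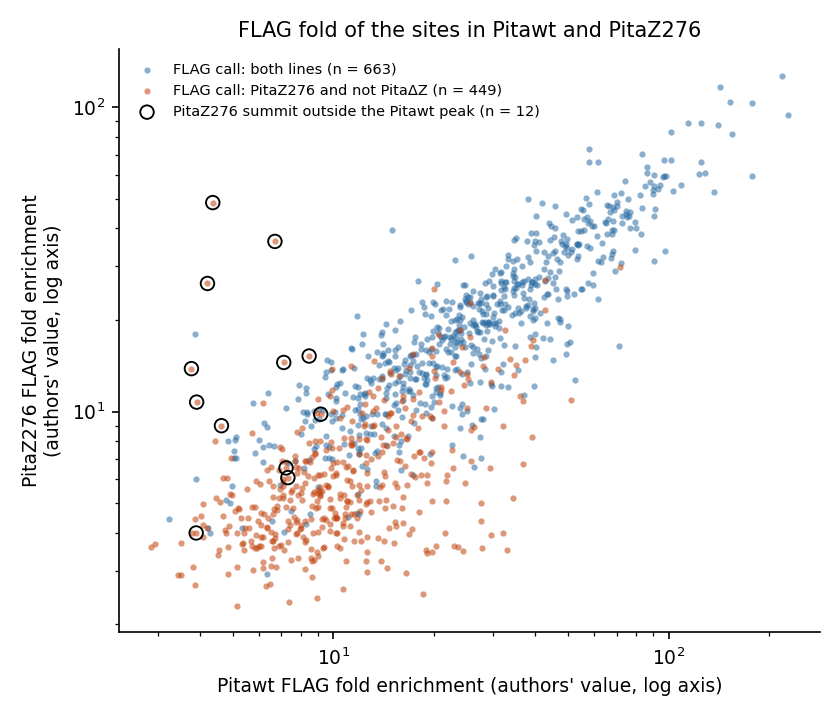
Pitawt FLAG fold (x axis, log scale) against PitaZ276 FLAG fold (y axis, log scale), each point a Pitawt FLAG peak, for the 449 sites and the 663 called in both altered lines. The 449 sites lie at lower folds in both lists, and the 12 ringed sites, whose PitaZ276 summit falls outside the Pitawt peak, include 3 with a PitaZ276 fold over 26.

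The site with the highest Pitawt FLAG fold lay inside Mur2B, a mucin-related gene (dm6, X:1559405-1561417). Its FLAG fold was 71.6 in Pitawt (rank 38 of 1792) and 29.9 in PitaZ276 (rank 120 of 1243), with summits 1 bp apart. With the Pita antibody its fold was 83.9 in Pitawt, 16.0 in PitaZ276 and 3.87 in PitaΔZ, where it ranked 680 of 797. It was thus present in every list but PitaΔZ FLAG, strong in Pitawt and PitaZ276 and near the bottom of the PitaΔZ Pita list. The distance to the nearest PitaΔZ FLAG peak was 45735 bp.

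Sites at Prosap, Tlk and Flo2 had the same set of calls. Prosap encodes a scaffold protein of synapses, and its site (2R:14140568-14141861) lay 107 bp from the gene end. Its FLAG folds were 42.7 in Pitawt and 27.1 in PitaZ276, and its Pita folds were 35.3 in Pitawt, 10.5 in PitaZ276 and 4.25 in PitaΔZ. The site inside Tlk, which encodes a kinase of chromatin assembly (X:3761114-3761647), had FLAG folds of 42.7 in Pitawt and 21.6 in PitaZ276. Its Pita folds were 61.1 in Pitawt, 10.7 in PitaZ276 and 5.61 in PitaΔZ. The site inside Flo2, a flotillin gene of membrane microdomains (X:14873843-14874944), had FLAG folds of 32.6 and 18.6, and Pita folds of 22.2 in Pitawt, 5.06 in PitaZ276 and 10.1 in PitaΔZ. There the PitaΔZ rank of 499 of 797 was higher than at Mur2B, Prosap or Tlk.

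Other strong sites gave a call with the Pita antibody in PitaΔZ but not in PitaZ276. At spin, whose product is a lysosomal membrane transporter (2R:16134927-16136423), the FLAG folds were 36.7 in Pitawt and 6.71 in PitaZ276, and the Pita folds were 28.4 in Pitawt and 2.68 in PitaΔZ (rank 771 of 797). At zip, the gene of the nonmuscle myosin II heavy chain (2R:25010460-25012320), the FLAG folds were 35.0 and 14.3 and the Pita folds 21.3 in Pitawt and 3.13 in PitaΔZ. The sites at Fmo-1, CG17350 and CG1598 went the other way, with PitaZ276 Pita folds of 4.36, 6.54 and 3.93 and no PitaΔZ Pita peak. At Obp47b and at the Hox gene pb the Pita antibody gave a call in Pitawt alone, with folds of 47.5 and 51.8.

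**Figure D2:**
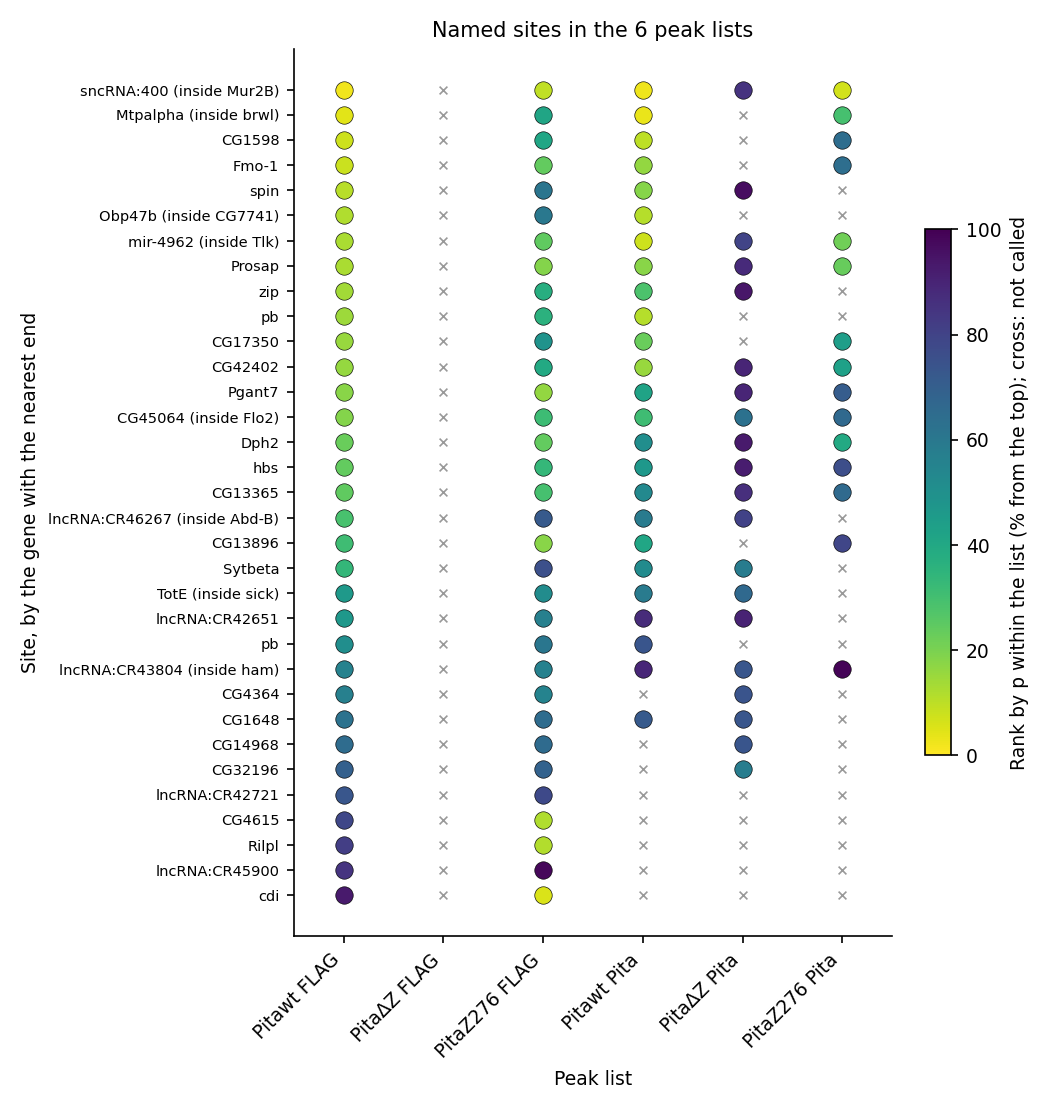
Position of a selection of the named sites (rows) in each of the 6 peak lists (columns), coloured by rank within the list as a percentage from the top, with a cross where a site was not called. PitaΔZ FLAG holds crosses throughout, by the choice of sites, and the calls in PitaΔZ Pita lie in the lower part of that list.

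The Pita antibody lists were not used to choose the sites, although they share the preimmune control with the FLAG lists. In Pitawt, 279 of the 449 sites were called with the Pita antibody (62.1%, 57.5 to 66.6%), beside 63.8% of all Pitawt FLAG peaks. The shares were 88.1% (85.4 to 90.5%) for sites called with FLAG in both altered lines and 41.2% (37.5 to 45.1%) for those called in neither. In PitaΔZ, 94 of the 449 sites were called with the Pita antibody (20.9%, 17.3 to 25.0%), beside 41.1% of all Pitawt FLAG peaks. There, the share was 95.3% (93.4 to 96.8%) for sites called in both altered lines and 0.593% (0.162 to 1.51%), or 4 of 674, for those called in neither. In PitaZ276, 58 of the 449 were called with the Pita antibody (12.9%, 9.96 to 16.4%), beside 26.5% of all Pitawt FLAG peaks, 62.7% (58.9 to 66.4%) of sites called in both altered lines and 0.148%, or 1 of 674, of those called in neither.

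Absence from PitaΔZ is the rule for the FLAG antibody and does not extend to the Pita antibody at these 94 sites, which stood at the weak end of the PitaΔZ Pita list. They ranked from 461 to 797 of the 797 PitaΔZ Pita peaks, with a median rank of 709.5 and folds of 2.33 to 11.6 (median 3.88). Sites called with FLAG in both altered lines had a median rank of 316.5 and a median fold of 20.0 in the same list. In that list 159 peaks (19.9%) had a fold under 5, where the PitaΔZ FLAG list had 7. The part of this difference in reach between the lists was not tested. The 94 sites had median FLAG folds of 11.4 in Pitawt and 7.74 in PitaZ276, and the other 355 had 9.78 and 5.08. In PitaZ276 Pita, the 58 sites ranked from 33 to 491 of 492 with a median fold of 4.41.

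The Pita antibody gave a call in PitaΔZ and none in PitaZ276 at 67 sites (14.9%, 11.8 to 18.6%), beside 17.7% of all Pitawt FLAG peaks. The reverse held at 31 sites (6.90%, 4.74 to 9.66%), beside 3.13% of all. More calls in PitaΔZ Pita than in PitaZ276 Pita were thus general to the Pitawt FLAG peaks. The PitaΔZ Pita list had 797 peaks and the PitaZ276 Pita list 492. Their smallest −log10 IDR also differed, at 2.02 in PitaΔZ Pita and 1.30 in PitaZ276 Pita. With a value of at least 2 in every list, 24.6% of 366 sites were called in PitaΔZ Pita and 1.09% in PitaZ276 Pita. This threshold takes peaks from PitaZ276 Pita and none from PitaΔZ Pita, and the shares over all Pitawt FLAG peaks were not taken at it. The part of list length and threshold in these shares was not tested. By combination of lists, 188 of the 449 sites were called with the Pita antibody in Pitawt alone, with median FLAG folds of 12.6 in Pitawt and 5.20 in PitaZ276. A further 136 (30.3%, 26.1 to 34.8%) were called in no Pita list, beside 29.7% of all Pitawt FLAG peaks, with medians of 6.53 and 4.49. In all 3 there were 24 (5.35%, 3.45 to 7.85%), beside 22.4% of all, with medians of 21.8 and 14.6. In Pitawt and PitaZ276 but not PitaΔZ there were 24 (5.35%, 3.45 to 7.85%). That compares with 3.62% of sites called with FLAG in both altered lines and 2.68% of all Pitawt FLAG peaks. In Pitawt and PitaΔZ but not PitaZ276 there were 43, and in PitaΔZ alone 24. PitaZ276 alone had 7, and PitaΔZ with PitaZ276 but without Pitawt had 3. Combinations given without a share over all Pitawt FLAG peaks were not counted there and are a description.

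Since the classes differ in wild-type strength, the shares were also taken within the 5 bins of Pitawt FLAG fold. With the Pita antibody in PitaΔZ, from the strongest bin to the weakest, the sites gave 30.0%, 27.4%, 20.7%, 19.6% and 5.56%. The sites called with FLAG in both altered lines gave 93.2%, 98.0%, 98.9%, 100% and 73.3%, and those called in neither gave at most 0.877%. In the middle bin the intervals were 14.5 to 28.0% for the sites, 94.1 to 100% for both lines and 0 to 3.18% for neither. The shares of the 3 classes thus stood in the same order in this list in each of the 5 bins, the strongest of which held 5 sites called in neither line. That bin spans folds of 26.1 to 227, and the 449 sites reach 71.6, so folds there are not alike. In the strongest and weakest bins the intervals of the sites (14.7 to 49.4% and 1.16 to 15.4%) overlapped those for neither line (0 to 52.2% and 0.0842 to 2.49%). With the Pita antibody in PitaZ276, the shares of the sites were 50.0%, 22.1%, 8.67%, 4.90% and 0%, against 87.3%, 51.7%, 27.2%, 7.41% and 0% for sites called in both altered lines. In the weakest bin 0 of 54 sites were called, which allows a share of up to 6.60%.

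In Pitawt itself the order of the classes was different in the middle bin. There the Pita antibody called 73.3% of the sites (65.5 to 80.2%), 58.7% (47.9 to 68.9%) of those called with FLAG in both altered lines and 88.6% (81.3 to 93.8%) of those called in neither. The interval for neither line did not overlap the other 2. In the next weaker bin the shares were 25.5%, 29.6% and 46.1%. In the 2 strongest bins they were 96.6% or more in each class.

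**Figure D3:**
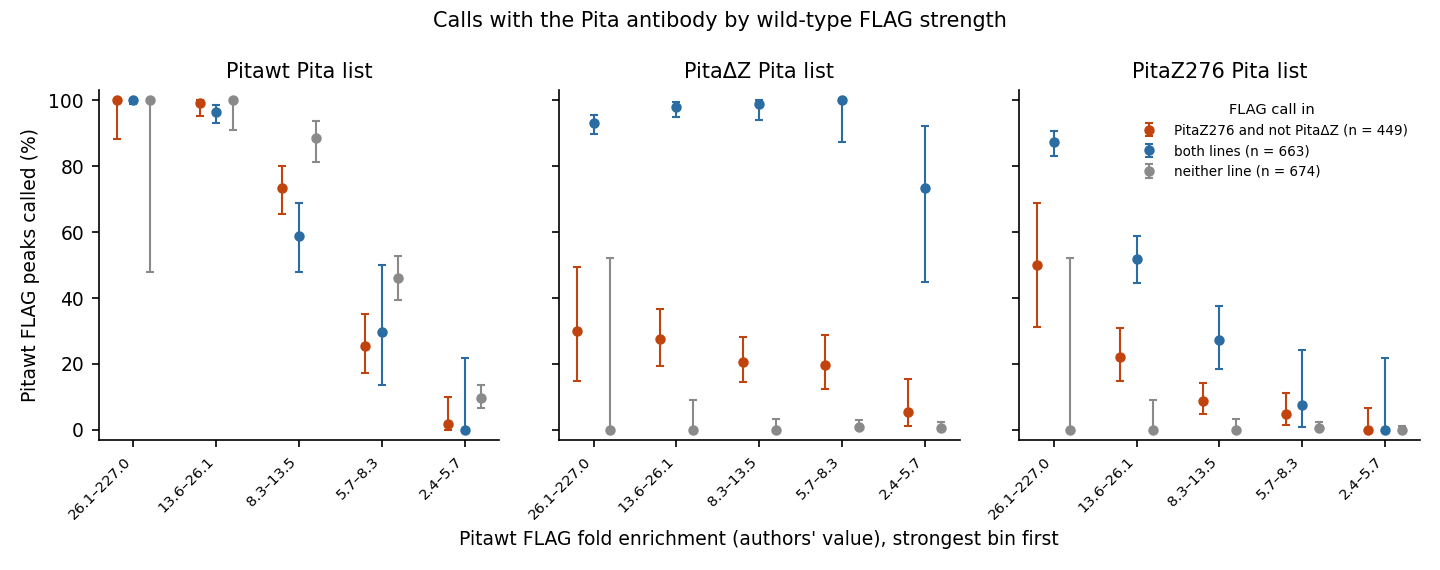
Share of Pitawt FLAG peaks called with the Pita antibody (y axis, percent, with exact 95% intervals) by bin of Pitawt FLAG fold (x axis, strongest first), in the Pitawt, PitaΔZ and PitaZ276 lists. In PitaΔZ the 449 sites lie between 5.56 and 30.0%. In every bin that is below the sites called with FLAG in both altered lines and above those called in neither. The intervals of the 449 sites and of those called in neither overlap in the strongest and weakest bins.

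Within the 449 sites, those with a stronger PitaZ276 FLAG peak were called more often with the Pita antibody in every line. The sites were divided by PitaZ276 FLAG fold into 3 parts, of 150, 149 and 150 sites with median folds of 9.91, 5.52 and 3.76. The Pita antibody called 34.0% (26.5 to 42.2%), 4.03% and 0.667% of them in PitaZ276, the last being 1 site. In PitaΔZ it called 38.0% (30.2 to 46.3%), 17.4% (11.7 to 24.5%) and 7.33% (3.72 to 12.7%). In Pitawt it called 78.0%, 57.7% and 50.7%. The Pitawt FLAG folds of the 3 parts moved along, with medians of 14.8, 9.35 and 7.96. The PitaZ276 FLAG fold comes from a list that the rule used, so these shares are a description. The part with the highest folds also holds the displaced sites at cdi, CG4615 and Rilpl, described below, whose fold belongs to a neighbouring summit.

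The sites were also divided by their change in rank from Pitawt to PitaZ276, with ranks taken among the 449 sites by FLAG fold in each list. Both folds come from lists that the rule used, and a site high in Pitawt has further to fall, so the Pitawt values below partly restate the division. The division equally selects on PitaZ276 FLAG fold, with which the calls in PitaΔZ Pita and PitaZ276 Pita moved above. The shares in the altered lines are therefore not independent of the division either, and are a description. The 150 sites that fell furthest had Pita antibody calls at 87.3% of sites in Pitawt (80.9 to 92.2%), 9.33% in PitaΔZ (5.20 to 15.2%) and 4.00% in PitaZ276. The middle 149 had 65.8%, 28.2% (21.1 to 36.1%) and 22.8%. The 150 that rose furthest had 33.3% (25.9 to 41.5%), 25.3% (18.6 to 33.1%) and 12.0%. The median Pitawt FLAG folds were 12.6, 11.2 and 7.49, so strength in the wild type moved with the Pitawt shares. The median PitaZ276 FLAG folds were 4.35 in the part that fell, 6.29 in the middle part and 6.59 in the part that rose. The part that fell thus had the lowest PitaZ276 FLAG folds and the lowest shares in both altered lines. The part that rose holds the displaced sites at cdi, CG4615 and Rilpl, described below.

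**Figure D4:**
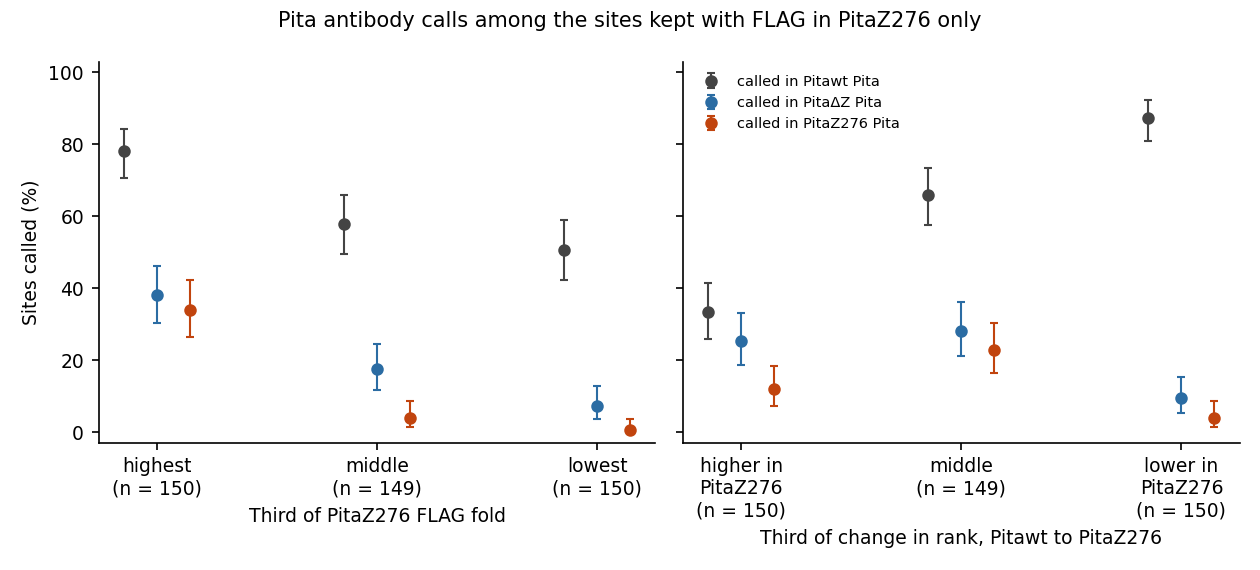
Share of sites called with the Pita antibody in each line (y axis, percent, with exact 95% intervals), for the 449 sites divided into 3 parts by PitaZ276 FLAG fold (left) and by change in rank from Pitawt FLAG to PitaZ276 FLAG (right). In PitaΔZ the share runs from 38.0% to 7.33% on the left, and on the right it is 9.33% in the part that fell.

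The 6 sites that fell furthest in rank were picked by their FLAG folds, which are given as a description. The site inside csw, which encodes a tyrosine phosphatase of receptor tyrosine kinase signalling (X:2113691-2115315), had a FLAG fold of 33.1 in Pitawt and 3.50 in PitaZ276. Its Pitawt Pita fold was 33.0. The site inside Plp and sstn (3L:15092976-15094637) went from 27.7 to 3.57, and Plp encodes a pericentrin-like centrosome protein. The site inside zormin, a gene of a muscle Z-disc protein (3L:2127515-2129266), went from 18.5 to 2.51 and had a Pitawt Pita fold of 34.3 at rank 56 of 1195. The site inside eas, an ethanolamine kinase gene (X:16280513-16281288), went from 22.9 to 3.63. Those at CG32313 and CG43867 went from 24.3 to 3.48 and from 23.6 to 3.60. All 6 were called in Pitawt Pita and in neither PitaΔZ Pita nor PitaZ276 Pita.

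The 6 sites that rose furthest in rank had a PitaZ276 summit in another peak. They are weak Pitawt FLAG peaks that a wider PitaZ276 peak covers from the side. At cdi, a protein kinase gene (3R:19093453-19093975), the Pitawt FLAG fold was 4.37 and the PitaZ276 fold 48.7, with summits 2884 bp apart. Inside CG4615 (X:7101326-7101665) the folds were 6.69 and 36.3 with an offset of 3363 bp. Beside Rilpl (X:1397762-1398285) they were 4.21 and 26.4 with an offset of 1833 bp. The others were a site inside daw, an activin-like ligand gene (2L:2806044-2806969, 3.77 and 13.8), one inside a further gene on 2R (2R:5753876-5755382, 3.91 and 10.7) and one beside CG1074 (4.63 and 8.99). None of the 6 was called in any Pita list.

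In all, 12 of the 449 sites had a PitaZ276 FLAG summit outside the Pitawt FLAG peak. In 11 of the 12 the summit lay in another Pitawt FLAG peak, and in 5 it lay in a PitaΔZ FLAG peak, at cdi, CG4615, Rilpl, endos and the site at 2R:5753876-5755382. These 12 sites meet the rule, but in those 11 the PitaZ276 fold belongs to a peak whose summit is at a neighbour, and in the other, at C3G, the PitaZ276 summit lay in no peak of the other lists. They include the highest 2 PitaZ276 folds among the 449. The 449 sites met 443 distinct PitaZ276 peaks, and for 17 sites the PitaZ276 peak met 2 or more Pitawt FLAG peaks. The other 437 sites (97.3%, 95.4 to 98.6%) had the PitaZ276 summit inside the Pitawt peak.

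Apart from those, the highest PitaZ276 folds stood at sites with Pitawt FLAG folds of 20.0 or more. Besides Mur2B, Prosap, Tlk and Flo2 these included the site 100 bp from CG13896 (3L:709581-712209), with FLAG folds of 20.0 in Pitawt and 25.2 in PitaZ276. It was called with the Pita antibody in Pitawt (fold 17.2) and PitaZ276 (4.04) and not in PitaΔZ. The site 38 bp from Pgant7, which encodes an enzyme that starts mucin-type glycosylation (X:18499132-18500798), had FLAG folds of 25.5 and 22.8. Its Pita folds were 13.2 in Pitawt, 4.06 in PitaZ276 and 3.36 in PitaΔZ. At hbs, an immunoglobulin-type adhesion gene of myoblast fusion (2R:15010398-15012100), the FLAG folds were 25.5 and 17.6 and the PitaΔZ Pita fold was 3.62. CG13365 and Dph2, a gene of diphthamide synthesis, had PitaZ276 FLAG folds of 18.6 and 17.9 and PitaΔZ Pita folds of 4.26 and 3.00.

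The sites with the highest folds in PitaΔZ Pita had, apart from Flo2, Pitawt FLAG folds under 20. The highest was inside CG32196 (3L:18459611-18460736), with a PitaΔZ Pita fold of 11.6 (rank 461 of 797), FLAG folds of 7.90 in Pitawt and 6.53 in PitaZ276 and no call in Pitawt Pita or PitaZ276 Pita. At Sytbeta, a synaptotagmin gene (3L:15013633-15014690), the PitaΔZ Pita fold was 11.5, and the FLAG folds were 19.1 and 5.80. The site inside sick (2L:19914697-19916566) had 9.25 in PitaΔZ Pita, with FLAG folds of 13.4 and 10.3. Those at CG14968 and CG4364 had 7.13 each and no Pitawt Pita peak. At CG1648 the PitaΔZ Pita fold was 6.98, and inside ham, which encodes a zinc-finger transcription factor of neuronal fate, it was 6.66. Of all 449 sites, 27 (6.01%) were called in PitaΔZ Pita and not in Pitawt Pita, as were 6.03% of all Pitawt FLAG peaks.

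At the edge of the rule, the sites nearest to a PitaΔZ FLAG peak were those at CG4364, at 2R:5753876-5755382, at endos, which encodes an inhibitor of the phosphatase PP2A, and at cbc. The gaps were 239, 263, 280 and 286 bp. Of these, the CG4364 site was called with the Pita antibody in PitaΔZ, and the next pair belongs to the 12 with a displaced summit. The shortest overlaps with a PitaZ276 FLAG peak were 93 bp inside daw, 99 bp inside C3G, 250 bp on an unplaced scaffold and 251 bp inside Abd-B. Just outside the rule stood Pitawt FLAG peaks that met a PitaΔZ FLAG peak by 256 bp at CG42326, 261 bp at lncRNA:CR44365, 265 bp at a phenylalanine tRNA gene and 267 bp near ftz. Their PitaΔZ FLAG folds were 6.49, 11.2, 7.33 and 7.29. The median gap of the 446 sites on named chromosomes to a PitaΔZ FLAG peak was 39899.5 bp, so few of them lay near this edge.

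Each of the 3 FLAG lists was also held to its strongest 685 peaks by p, the length of the PitaΔZ list. Of the 685 Pitawt FLAG peaks kept, 64 met the rule, where 449 of 1792 did with the lists as deposited. All 64 were among the 449 by construction, since only the Pitawt and PitaZ276 lists were shortened. Of the 449, 135 ranked in the strongest 685 of Pitawt and 105 in the strongest 685 of PitaZ276. The 64 include the sites inside Mur2B, brwl, Tlk and zip and those at Prosap, Fmo-1, pb and CG1598. Their share within 500 bp of a gene end was 35 of 64.

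Gene position was a second measure that the rule did not use. The summit lay within 500 bp of a gene end at 239 of the 446 sites on named chromosomes (53.6%, 48.8 to 58.3%), beside 55.6% of all Pitawt FLAG summits. It did so at 71.7% (68.1 to 75.1%) of sites called with FLAG in both altered lines and at 41.1% (37.4 to 44.9%) of those called in neither. Inside a gene and farther than 500 bp from an end lay 169 of the 446 (37.9%, 33.4 to 42.6%), beside 35.0% of all. In the other classes it was 18.6% and 49.3%. Between genes lay 38 (8.52%), beside 9.47% of all and against 9.70% and 9.64%. The median distance to a gene end was 456.5 bp, against 159 bp for sites called in both altered lines and 754.5 bp for those called in neither. Ends of 2 or more genes lay within 500 bp at 24.4% of the sites (20.5 to 28.7%), beside 27.6% of all. In the other classes it was 39.8% and 18.0%.

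Taken within bins of Pitawt FLAG fold, the share near a gene end among the sites had overlapping intervals in all 5 bins. From strongest to weakest it was 40.0% (22.7 to 59.4%), 56.6% (47.0 to 65.9%), 53.4% (45.0 to 61.6%), 51.5% and 59.3%. Sites called in both altered lines gave 75.2%, 69.8% (63.0 to 76.0%), 69.6% (59.1 to 78.7%), 53.8% and 66.7%. Sites called in neither gave 40.0%, 28.2% (15.0 to 44.9%), 41.2% (32.1 to 50.8%), 43.9% and 40.6%. In the strongest bin the interval of the sites lay below that for both lines (70.1 to 79.8%) and overlapped that for neither. In the second strongest it lay above that for neither line and overlapped that for both lines. In the 3 weaker bins it overlapped both. Sites with and without a PitaΔZ Pita call had nearly the same share, at 54.3% (43.7 to 64.6%) and 53.4% (48.0 to 58.7%).

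**Figure D5:**
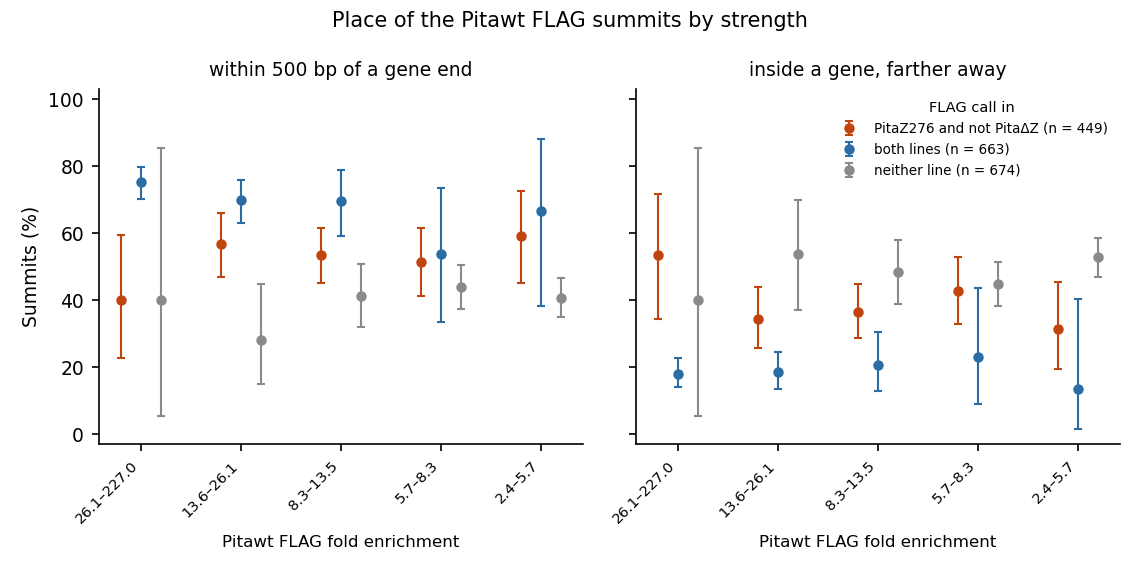
Share of Pitawt FLAG summits within 500 bp of a gene end (left) and inside a gene but farther away (right), in percent with exact 95% intervals, by bin of Pitawt FLAG fold for the 3 classes of FLAG call. On the left the 449 sites lie between the other classes in 4 bins and level with the sites called in neither, at 40.0%, in the strongest, and in every bin their interval overlaps that of at least 1 other class.

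The nearest gene was protein-coding at 381 of the 446 sites (85.4%), a long noncoding RNA gene at 30 (6.73%), an antisense RNA gene at 13 and a tRNA gene at 7. It was protein-coding at 93.0% of sites called in both altered lines and 87.5% of those called in neither. For long noncoding RNA genes these shares were 3.94% and 7.12%. The genes around the 169 sites inside a gene had a median length of 18590 bp, against 28429 bp for sites called in both altered lines and 12396.5 bp for those in neither. In 22 genes 2 or more of the sites had a summit inside the gene, here also counting summits within 500 bp of a gene end. Overlapping genes count apart, such as CG43739 and sky, both 47597 bp long, which share a site. Genes with 2 or more of all Pitawt FLAG summits inside were not counted, so the 22 are a description. In CG9380 all 3 Pitawt FLAG summits belonged to the sites described here, with Pitawt FLAG folds of 33.6, 9.37 and 7.56. In shot, which encodes a spectraplakin linking actin and microtubules, it was 3 of 4, with folds of 20.3, 19.7 and 8.46, and the latter 2 met 1 PitaZ276 peak with a fold of 15.2. In kibra, a gene of the Hippo pathway, there were 2 with Pitawt FLAG folds of 18.6 and 4.53. In Hsp83, the gene of the Hsp90 chaperone, there were 2 with folds of 7.73 and 5.33.

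The sites were spread over the chromosomes. They made up 26.3% of Pitawt FLAG peaks on 2L (87 sites), 24.7% on 2R (85), 26.3% on 3L (95), 24.9% on 3R (100) and 22.0% on X (74), with overlapping intervals, and 5 of 10 peaks on chromosome 4. Of the 12 sites with the highest PitaZ276 FLAG fold, 7 lay on X, and of the 12 with the highest Pitawt FLAG fold, 2 did. CG4615 and Rilpl, with displaced summits, are among those 7. The closest Pitawt FLAG neighbour of a site was itself one of the 449 at 29.8% of them (25.6 to 34.3%). That stood beside 25.4% of all Pitawt FLAG peaks, and 25.8% and 22.1% in the other classes. Another Pitawt FLAG summit lay within 10 kb at 38.8% of the sites. This was near the 37.8% of all Pitawt FLAG peaks, with 30.6% and 44.2% in the other classes.

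In the Antennapedia complex, where Hox genes of the head and front thorax lie (3R:6661427-6999228), 5 of the 8 Pitawt FLAG peaks were of this kind and the other 3 were called in both altered lines. Around pb stood a peak beside the gene (3R:6705514-6706895), with FLAG folds of 12.0 in Pitawt and 8.10 in PitaZ276, and the stronger one inside it (3R:6708131-6710225), with 38.8 and 16.4. Both were called in Pitawt Pita, at folds of 9.12 and 51.8, and in no Pita list of the altered lines. The site nearest lncRNA:CR42651 (3R:6806031-6807207) had FLAG folds of 13.2 and 9.07 and was called in PitaΔZ Pita with a fold of 3.83. The sites nearest lncRNA:CR42721 and lncRNA:CR45900 had Pitawt FLAG folds of 7.45 and 5.98 and were called in no Pita list.

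In the bithorax complex (3R:16656623-16972236) 1 of 7 Pitawt FLAG peaks was of this kind, with 4 called in both altered lines and 2 in neither. It lay inside Abd-B, the Hox gene of the last abdominal segments (3R:16957787-16958106), and was 320 bp wide. With FLAG its fold was 21.8 in Pitawt (rank 522 of 1792) and 6.17 in PitaZ276 (rank 895 of 1243). Its Pita folds were 11.9 in Pitawt and 5.53 in PitaΔZ (rank 640 of 797). The nearest PitaΔZ FLAG peak lay 11249 bp away.

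The summits reached 356 of 17684 genes within 500 bp of an end (2.01%), where all Pitawt FLAG summits reached 1505 (8.51%). Among cytosolic ribosomal protein genes they reached 4 of 93 (4.30%), sites called in both altered lines reached 19 and all Pitawt FLAG summits 25 (26.9%). The 4 were RpS26, RpS10b, RpL41 and RpS20, with Pitawt FLAG folds of 14.1, 12.8, 10.7 and 8.59 and PitaZ276 FLAG folds of 6.31, 11.6, 4.19 and 3.53. Of these, RpL41 was called in PitaΔZ Pita, at 3.05. Mitochondrial ribosomal proteins had 1 of 73 (mRpL52), and oxidative phosphorylation had 2 of 86, namely the complex I gene ND-15 and the complex IV gene COX7A. All Pitawt FLAG summits reached 8 (11.0%) and 10 (11.6%) of these. The proteasome had 2 of 48, Rpt3R and Prosalpha4T2, and translation factors 2 of 53, eIF4H1 and eIF3a. In these lists all Pitawt FLAG summits reached 9 (18.8%) and 9 (17.0%). Rpt3R shares its site with Tti1 (3R:9753124-9755129), where the FLAG folds were 29.5 in Pitawt and 3.92 in PitaZ276.

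Noncoding genes were reached at rates near or below that of all genes. The counts were 7 of 295 tRNA genes (2.37%), 21 of 2447 long noncoding and antisense RNA genes (0.858%) and 7 of 306 snRNA and snoRNA genes (2.29%). All Pitawt FLAG summits reached 18 (6.10%), 78 (3.19%) and 10 (3.27%) of these, against 8.51% of all genes. Of the 7 snRNA and snoRNA genes, 4 share 1 site inside a snoRNA cluster on 3R. Its FLAG folds were 32.0 in Pitawt and 3.99 in PitaZ276, with no Pita peak in the altered lines. Such counts are of genes, not of independent sites.

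For regulatory and tissue lists the counts are given beside those of all Pitawt FLAG summits. Architectural proteins had 1 of 13, where all Pitawt FLAG summits reached 2. The site was at BEAF-32, the gene of another insulator protein (2R:14770382-14771046). With FLAG its fold was 9.97 in Pitawt (rank 982 of 1792) and 10.0 in PitaZ276 (rank 613 of 1243), and it was called in no Pita list. Cytochrome P450 genes had 1 of 87 (Cyp4d1) and chemosensory genes 1 of 237 (Ir21a, a receptor of cool sensing), the latter called in PitaΔZ Pita with a fold of 5.21. All Pitawt FLAG summits reached 6 (6.90%) and 5 (2.11%) of these. The other lists had 0 of 121 (cuticle proteins), 0 of 25 (Hox and segmentation), 0 of 25 (Polycomb and trithorax), 0 of 10 (circadian) and 0 of 24 (ion channels and synapse). In the same order, all Pitawt FLAG summits reached 1, 0, 5, 0 and 2. Summits inside a gene but farther from its ends were found in Abd-B, pb, the cuticle protein gene Cpr73D, the trithorax-group remodeller gene kis, the clock gene vri and the potassium channel gene Sh. These lists are short, and a count of 0 over them does not show absence.

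By gene, 5 had 2 or more of the sites within 500 bp of an end, namely CG15715 with 3 and CG10657, Rm62, koko and l(1)G0320 with 2 each. The sites inside daw show how close neighbours can differ. The one at 2L:2807216-2808758 had FLAG folds of 31.0 in Pitawt and 13.8 in PitaZ276 and was called with the Pita antibody in all 3 lines, at 32.6, 3.37 and 7.34 in Pitawt, PitaΔZ and PitaZ276. The one beside it, described above, met the edge of the same PitaZ276 peak.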

How the data were processed

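The submitters' processing notes name build dm6 and, without versions, MACS2, Bowtie2, cutadapt, Picard, deepTools and bedtools. The authors deposited 6 peak lists of 20 columns without a header. From the layout and values, column 7 of the deposited lists was read as a fold enrichment (a ratio), others as −log10 p- and q-values, as −log10 IDR and as a score. Which libraries stand behind a list is not stated in those notes. Ranks within a list follow the p-value, and changes in rank among the sites follow the fold. A site was called in a list when it overlapped a peak of it by 1 bp, and the peak with the largest overlap gave its values. Genes came from the RefSeq table of Release 6 (17684 genes, without strand or exons), so positions are distances to either gene end. Sites are named by the nearest gene end. No genome sequence was used here. The overlap and distance code was checked on simulated data. The sites named were the extremes in fold, rank change, PitaΔZ Pita fold and distance to the edge of the rule, sites in Hox complexes and examples from 16 gene lists; those given for genes with several sites were chosen after their values were seen. Members, lists and rules were chosen with earlier results of these data known. Alternatives changed the overlap, thresholds, list lengths, chromosomes and gene window. Python 3.11.15, numpy 2.4.6, pandas 2.3.3, scipy 1.17.1 and matplotlib 3.10.9 were used.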

Additional observations from a re-analysis of the deposited data

How the results depend on the processing

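The number of sites, 449 of 1792 Pitawt FLAG peaks, came to 64 of 685 when all FLAG lists were held to equal length. It was within 1.5 times of 449 under the other 9 alternatives. The share called in Pitawt Pita, 62.1%, was 47.6% with 50% reciprocal overlap, 47.0% with −log10 IDR of at least 2 in every list and 84.4% with equal lengths. The share in PitaΔZ Pita, 20.9%, was 8.63% with reciprocal overlap and 12.5% with −log10 q of at least 10. The share in PitaZ276 Pita, 12.9%, was 6.11%, 5.63% and 1.09% with reciprocal overlap, q and IDR, and 8.73% when sites with a PitaΔZ Pita peak were left out, a choice made after seeing the data. With every list held to the 492 peaks of PitaZ276 Pita it was 79.1% of 67 sites, but 49 of those 67 had a PitaΔZ FLAG peak in the list as deposited and 18 were among the 449. Of the 64 sites at equal FLAG length, 37 were called in PitaZ276 Pita as deposited, beside 26.5% of all Pitawt FLAG peaks. With PitaΔZ Pita also held to 685 peaks, 12 of the 64 (18.8%) were called in it. As deposited, that list also held lower-ranked peaks at others of the 64, such as Prosap (rank 702 of 797) and zip (rank 750). The 64 come from the strongest 685 Pitawt FLAG peaks, so the share over all peaks is not matched to them in strength. The share near a gene end, 53.6%, was 26.7% with a window of 200 bp and 67.3% with 1000 bp. Beyond what the shorter lists and windows bring by construction, the cause was not tested. Of 51 values, 38 moved by less than their interval, or for the number of sites by less than 1.5 times. No paired analysis was possible because each line and antibody had 1 deposited list and no result comes from a test. Depth is unknown, and a site missing from a list is one not called there.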
